A study of Mus musculus with 2 samples.

Results

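Nonsense-mediated decay (NMD) is a surveillance pathway that degrades mRNAs carrying a stop codon too early in the transcript. A stop codon is usually read as premature when an exon-exon junction lies well downstream of it, because the exon junction complex left there by the spliceosome recruits UPF proteins to the terminating ribosome. Many genes for splicing factors and ribosomal proteins use this route to limit their own level, by including a "poison" exon or skipping an exon so that the reading frame ends early. The isoforms described here are those that the FLAMES long-read pipeline counted under an Ensembl transcript name and that the Gencode mouse annotation types as nonsense_mediated_decay. There were 347 of them among 68065 counted isoforms, of which 7754 carried a reference name, and they belonged to 313 of 12032 genes with a counted isoform.

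The cells were muscle stem cells (MuSCs) of Pax7creERT2;R26-eYFP fl/fl mice on a C57BL6 background, in which tamoxifen, given for 5 days at 3 months of age, switched on YFP in cells that express Pax7. Quiescent cells came from uninjured hindlimb muscle and activated cells from muscle taken 72 h after an injection of 1.2% barium chloride, and YFP-positive cells of both kinds were captured together with the 10x Chromium 3′ protocol. Long reads were made from the 10% aliquot only, and no label says which barcode came from injured muscle, so groups of barcodes were formed by depth. The lower group held 157 barcodes of 3000 to 15000 short-read UMIs without a UMI of the dividing-cell genes Rrm2, Top2a or Cdk1, and the higher group held 79 barcodes of at least 20000, out of 1991 barcodes in the aliquot. There was 1 capture and no replicate. All intervals below therefore cover counting error only, no difference was tested, and the depth of a barcode cannot be told apart from the state of its cell.

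The groups carried the markers of different MuSC states. In short reads Chrdl2, a gene of quiescent MuSCs, was at 155 CPM (the gene's UMIs scaled to the group's total) in the lower and 0.196 CPM in the higher group, and Spry1, an inhibitor of growth factor signalling that is high in quiescence, at 124 and 2.94 CPM. The rule bars barcodes with UMIs of other dividing-cell genes from the lower group, so a low Mki67 there is no separate support. Mki67, a marker of dividing cells, was at 0.897 CPM in the lower and 30.8 CPM in the higher group. Myod1, the myogenic transcription factor, went the other way at 1106 and 185 CPM, and the immediate early gene Egr1, which responds to tissue dissociation, was at 473 and 19.4 CPM. Of 4 genes of differentiating muscle cells Myog was at 1.79 and 33.1 CPM and Tnnt3 at 8.08 and 12.4 CPM, while Ckm, at 15.3 and 1.18 CPM, and Acta1, at 28.7 and 10.4 CPM, went the other way. Of 5 immune markers Cd74 was at 235 CPM in the lower group, where 1.27% of barcodes held a UMI, Tyrobp at 58.3 and 25.5 CPM and Lyz2 at 8.97 and 27.3 CPM, while the pan-leukocyte gene Ptprc had 0 UMIs in the lower and 1 in the higher group. The endothelial, fibro-adipogenic and mural markers all stayed between 0 and 5.38 CPM, and Myh11 was at 0 in both groups. The part of these differences in the results below was not tested.

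The reference sequences show what the counted names rest on. The first set gives the junction at which 3 NMD isoforms that led their genes differ from a protein-coding transcript of the same gene (GRCm38, Gencode transcripts, 5′ to 3′). Capitals mark the bases that only the protein-coding version has. For Rpl36a the intron ended 1 base later in the NMD isoform (chrX:134586184-134586511, plus strand) than in the protein-coding transcript (chrX:134586184-134586510). The NMD introns of Bak1 (chr17:27022873-27025792, minus strand) and Ifngr1 (chr10:19597517-19601319, plus strand) were longer by 5 and 14 bases.
Rpl36a NMD: tttgtatgcccaggaaagcggcgttacg
Rpl36a protein-coding: tttgtatgcccaggGaaagcggcgttacg
Bak1 NMD: cgtccccttctgcaggttgcccag
Bak1 protein-coding: cgtccccttctgAACAGcaggttgcccag
Ifngr1 NMD: ctgtacaggggttcct
Ifngr1 protein-coding: ctgtacagGTAAAGGTGTATTCgggttcct

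The second set gives the end of the reading frame in NMD isoforms that differ from protein-coding transcripts by whole exons or by a distant splice site. Each run holds the last coding bases with the premature stop codon in capitals. Those of Srsf3 (stop at chr17:29039485-29039487), Rps19 (chr7:24886151-24886153), Tra2a (chr6:49252965-49252967) and U2af1 (chr17:31651684-31651686) lie inside an exon that the nearest protein-coding transcript lacks. Those of Clk1 (chr1:58419713-58419715) and Arid5a (chr1:36318085-36318087) lie in an ordinary exon that is read in another frame after an exon has been skipped. In Rpl22l1 the stop codon (chr3:28806760-28806762) lay within an exon that the protein-coding transcript shares.
Srsf3: accatcatgtctcttctcaccaccctcTGA
Rps19: gggaccaccatgactcaacacagcctcTGA
Tra2a: aaaaaattgaacagaagattggtcagaTAG
U2af1: taccattgccctcttgaacatttaccgTAA
Clk1: tcacacgggatgaaattgttgatacttTAG
Arid5a: tggagaagctgggggcctatgagctggTGA
Rpl22l1: ataggaacagtttctacgggagaaggtTAA

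The NMD type and the stop codons come from the same annotation, so their match is no independent check of the label. In 344 of the 347 isoforms the stop codon lay more than 50 bases before the last exon-exon junction, with a median distance of 344 bases and a range of 29 to 3222. A stop codon that a protein-coding transcript of the gene also uses was found in 26 members. Hnrnpa1, Srsf2, Tardbp and the main isoform of Eif4a2 were among these. The members had a median length of 1583 bases and 7 exons. The 270 counted protein-coding isoforms of the same genes had a median of 1574 bases and 7 exons. Gencode holds 7186 NMD transcripts in all, of which 4.83% (exact 95% interval 4.34 to 5.35%) were counted. Of 3400 genes with a counted isoform and an annotated NMD transcript, 9.21% held a member, 284 genes with 1, 26 with 2 and 3 with more.

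NMD isoforms took 57643 of 8297203 long-read UMIs, a share of 0.695% (exact 95% interval 0.689 to 0.700%). Protein-coding names took 41.5% and isoforms without a reference name 56.5%. Retained-intron names took 0.637%, close to the share of the NMD isoforms. The share was spread very unevenly over genes. Genes for cytosolic ribosomal proteins held 68.5% of all NMD UMIs, with 20.6% on Rpl36a, a protein of the large subunit, and without the UMIs of ribosomal protein genes the NMD share was 0.296%. The median member had 27 UMIs, with 25th and 75th percentiles of 12 and 56.5, and 98 of the 347 had at least 50.

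Within their genes most members were minor isoforms. The median NMD share of a gene was 6.64%, with quartiles of 2.76 and 16.5%. Of 299 genes with at least 50 long-read UMIs, 128 had an NMD share under 5%, 110 had one of 10% or more, and 12 had one of at least 50%. Even so, 42 members were the most abundant counted isoform of their gene and 86 the second.

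The kind of difference from the nearest protein-coding transcript varied, as the plot of structure classes shows. An alternative splice site set 99 members apart, a skipped exon 77 and an extra exon 52. Several differences at once were found in 36, a retained intron in 11, an additional intron in 10, another first exon in 9 and another last exon in 5. In 35 members the whole intron chain lay within 5 bases of that of a protein-coding transcript, and these 35 held 16239 UMIs. A further 10 members had no intron that the protein-coding transcript lacked, and 3 belonged to genes without a protein-coding transcript. Extra-exon members held 5159 UMIs and skipped-exon members 3090.

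**Figure D1:**
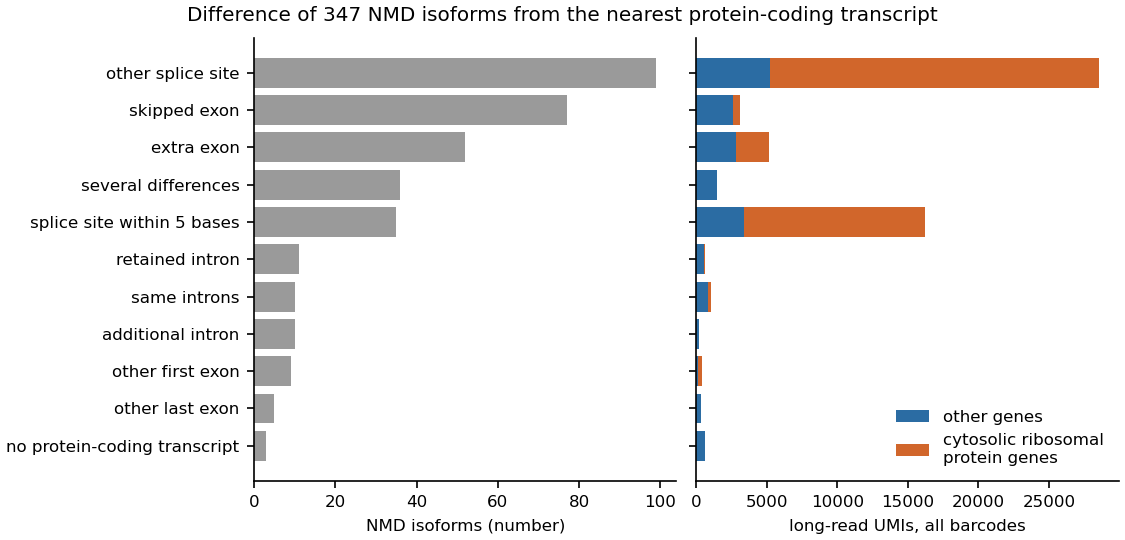
Number of NMD isoforms (left) and their long-read UMIs over all barcodes (right) by the kind of difference from the nearest protein-coding transcript of the gene. Orange marks genes for cytosolic ribosomal proteins, which made up most UMIs of the classes with another splice site and with a splice site within 5 bases.

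The genes with the highest NMD shares were nearly all of one structural kind. Of the 12 members that held at least 50% of the UMIs of a gene with 50 or more, 10 differed from a protein-coding transcript only by splice sites shifted by 30 bases or less, 6 of them by 5 bases or less, and in none was the nearest protein-coding transcript itself counted. FLAMES merges a read with a reference transcript when their junctions lie less than 5 bases apart, so for shifts near that size the NMD and the protein-coding name cannot be told apart from the counts.

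Rpl36a had 11852 UMIs on its NMD isoform, 89.2% of the gene (exact 95% interval 88.6 to 89.7%). Bak1, a pore-forming protein of the mitochondrial death pathway, had 649 UMIs on it, 94.1%. Both differ from the protein-coding transcript by the few bases in capitals above. Ifngr1, a chain of the interferon gamma receptor, had 83.2% of 327 UMIs on the NMD isoform, and Ube2t, a ubiquitin-conjugating enzyme of DNA crosslink repair, 90.4% of 104. Snapin, a SNARE-binding protein of vesicle transport, had 269 of 314 UMIs on its 2 NMD isoforms, the larger of which was shifted by 5 bases. Exosc4, a subunit of the RNA exosome, had a share of 71.7%, and Abhd12, a lipid hydrolase, one of 84.0%, both with a shift of 4 bases. Tec, a cytoplasmic tyrosine kinase, had 41 of 76 UMIs on an isoform shifted by 16 bases. Hyi, a putative hydroxypyruvate isomerase, had a single counted isoform with all 63 UMIs, in which exon sequence of 32 and 50 bases was skipped. Sssca1, for whose record Gencode gives no protein-coding transcript, had 501 of 543.

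The junction itself was also counted over all isoforms of a gene, reference-named or not. Exons were taken from the counted isoforms after merging, so this count is no separate check of the names. The NMD version of the Rpl36a junction was held by 11852 UMIs and the protein-coding version by 807. In Bak1, Ifngr1, Exosc4, Abhd12, Ube2t and Tec no counted isoform held the protein-coding junction. Rpl13a and Ppia, the abundant prolyl isomerase cyclophilin A, showed the opposite with shifts of 5 bases, the size of the Bak1 shift. In Rpl13a 1004 UMIs stood against 35575 on the protein-coding junction, and in Ppia 675 against 25568. Among 29 members shifted by 1 to 5 bases, with at least 50 UMIs on the 2 versions of the junction together, the NMD version held 90% or more in 8 and under 10% in 9.

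Poison exons were counted in genes for RNA-binding and ribosomal proteins. Srsf3, a splicing factor of the SR family, had 471 UMIs on an isoform with an extra exon of 456 bases, 5.63% of the gene (exact 95% interval 5.15 to 6.15%). Tra2a, an SR-like splicing activator, had 112 on one with an extra exon of 306 bases, 9.44%. Both exons contain the stop codon shown above. U2af1, which recognises the 3′ splice site, had 220 on an isoform with an extra exon of 67 bases, 7.89%. Clk1, a kinase that phosphorylates SR proteins, had 164 UMIs on 2 isoforms that skip an exon of 91 bases, 22.7%. The exon maps show where these exons fall.

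**Figure D2:**
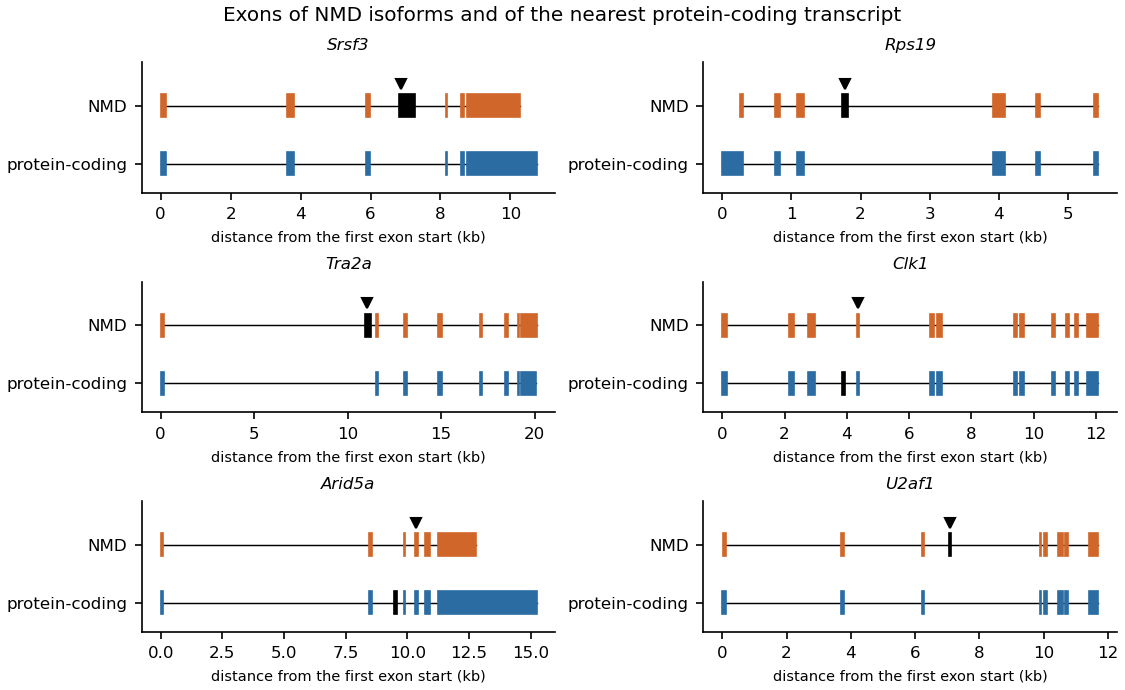
Exons of the NMD isoform (orange) and of the nearest protein-coding transcript (blue) of 6 genes, drawn to scale in the direction of transcription in kilobases from the first exon start. Black boxes are exons without a counterpart in the other transcript and the triangle is the stop codon of the NMD isoform, which lies in the black exon of Srsf3, Rps19, Tra2a and U2af1 and after the skipped one in Clk1 and Arid5a.

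Cytosolic ribosomal proteins dominated the list counts. Of 19 such genes with an annotated NMD transcript, 14 (73.7%) had a counted one, against 9.21% of all genes, and they held 68.5% of the NMD UMIs. Rps19, a small-subunit protein, had 1728 UMIs on an isoform with an extra exon of 81 bases, Rpl10a had 777, Rps18 had 621 with an extra exon of 169 bases, Rpl22l1 had 610 and Rpsa 362. As shares of their genes these were small, from 1.13% for Rpsa to 6.70% for Rpl22l1. These genes are also among the most deeply counted, and the part of depth in the list count was not tested.

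The counts of the other lists stand beside 9.21% of all genes with an annotated NMD transcript. Among splicing factors, 4 of 11 SR protein genes with an annotated NMD transcript had a counted one (Srsf3, Tra2a, Srsf2 and Tra2b). So had 4 of 14 hnRNP genes (Hnrnpa1, Hnrnpa2b1, Hnrnpll and Hnrnpr) and 10 of 25 other splicing regulators. The hnRNPs bind nascent RNA and often act against SR proteins. The core spliceosome had 2 of 16. Respiratory chain genes had 7 of 22, mitochondrial ribosomal proteins 7 of 19, proteasome subunits 3 of 12 and translation factors 3 of 12. DNA replication and cell cycle genes had 3 of 36, and heat shock proteins and the chaperonin 1 of 18 (Dnajc5). NMD factors and the exon junction complex, many of which are themselves held down by NMD, had 0 of 6. The part of depth in these list counts was not tested either.

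A pair of members joined neighbouring genes. The Ramp2 isoform, 128 UMIs, ended in Vps25, a subunit of the ESCRT-II complex, and the Mrps34 isoform, 137 UMIs, ended in Nme3, a nucleoside diphosphate kinase. Ramp2 itself encodes a partner of the calcitonin receptor-like receptor.

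The NMD share was lower in the barcodes of high depth. It was 0.839% of 1382498 long-read UMIs in the lower group (exact 95% interval 0.824 to 0.854%) and 0.639% of 4628237 in the higher group (0.632 to 0.646%), a difference of -0.200 percentage points (Newcombe 95% interval -0.217 to -0.184). Over single barcodes the median share was 0.834% in the lower group, with quartiles of 0.717 and 0.955%, and 0.643% in the higher group, with quartiles of 0.577 and 0.725%. The ranges overlapped, from 0.298 to 1.53% and from 0.425 to 0.979%. Retained-intron names went the same way, 0.890 against 0.523%, and protein-coding names the other way, 37.3 against 43.7%.

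**Figure D3:**
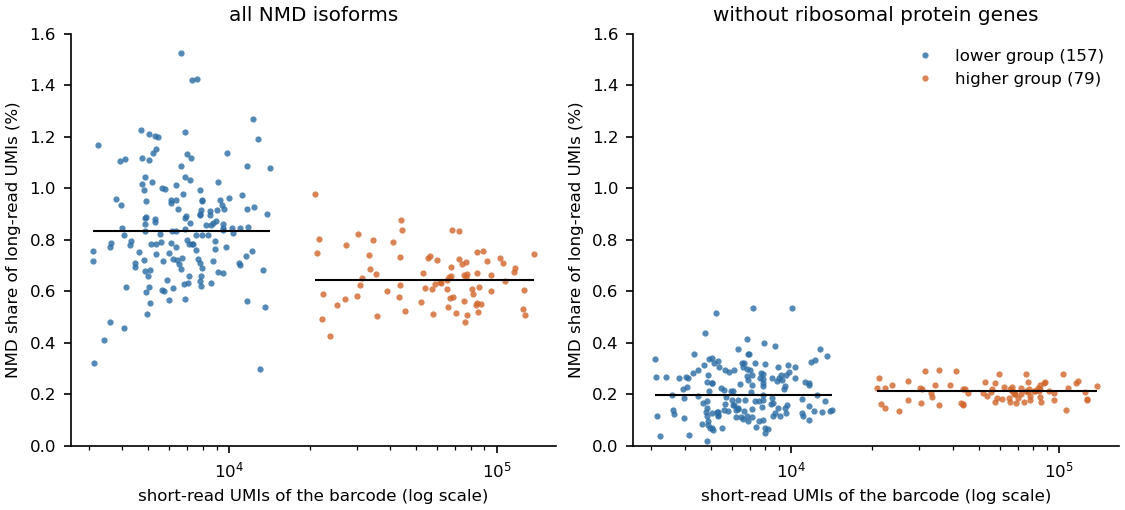
NMD share of the long-read UMIs of each barcode against its short-read UMIs (log scale), for all NMD isoforms (left) and for NMD isoforms of genes other than those for ribosomal proteins (right). Blue points are the 157 barcodes of the lower and orange points the 79 of the higher group, and the black lines are the group medians, 0.834 and 0.643% on the left and 0.197 and 0.212% on the right.

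The difference was much smaller when genes for ribosomal proteins were left out. These genes took 27.3% of all long-read UMIs in the lower and 26.6% in the higher group. Among the UMIs of all other genes the NMD share was 0.298 and 0.285%, a difference of -0.0127 points (Newcombe 95% interval -0.0250 to -0.000811). Over single barcodes, the NMD UMIs of these other genes were a median 0.197% of all long-read UMIs in the lower and 0.212% in the higher group, so the order of the medians was turned. Rpl36a itself had near equal NMD shares, 91.3 and 92.2%. With each gene given the same weight in both groups the NMD share was 0.807 and 0.727%, a difference of -0.0804 points over 3265 genes. With each group's own weights the difference over these genes was -0.227 points.

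Gene by gene, 173 of the 313 genes had at least 50 long-read UMIs in each group and could be compared, and the other genes were not. The NMD share was lower in the higher group in 97 and higher in 73, with a median difference of -0.174 points. It fell by at least 10 points in 12 genes (6.94%) and rose by at least 10 points in 7 (4.05%). Taken as single isoforms, 13 of 195 NMD isoforms fell by that much (6.67%) and 8 rose (4.1%). Over all 34508 counted isoforms of genes so covered, 4.39% fell and 4.65% rose by as much, so the counts past 10 points were near this background.

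Smaller differences leaned one way, though whether an interval excludes 0 depends also on UMI depth, which was not matched between the sets. The counting interval lay wholly below 0 in 54 of the 195 NMD isoforms (27.7%), against 19.4% of all isoforms, and wholly above 0 in 13 (6.67%), against 10.5%. For retained-intron isoforms these shares were 39.5 and 4.63%, and for protein-coding isoforms 10.7 and 30.7%. For isoforms without a reference name they were 19.9 and 8.9%. Among isoforms that held 1 to 20% of their gene, the interval lay below 0 in 43 of 132 NMD isoforms (32.6%), against 20.8% of all, and above 0 in 7 (5.3%), against 9.08% of all. By gene, the interval lay below 0 in 46 of the 173 and above 0 in 10, as the scatter of all compared genes shows.

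**Figure D4:**
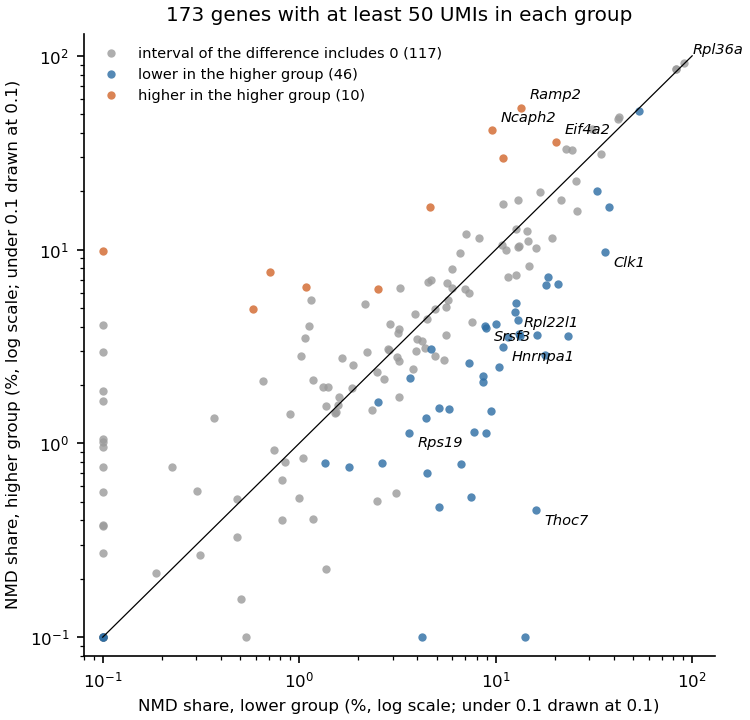
NMD share of 173 genes in the lower (x) and the higher (y) barcode group, both in percent on log axes with shares under 0.1 drawn at 0.1, and the line of equal shares. Blue genes (46) and orange genes (10) have a counting interval of the difference wholly below or above 0.

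Clk1 had the largest fall of the 173 genes. Its NMD isoforms had 83 of 231 UMIs in the lower group (35.9%, exact 95% interval 29.7 to 42.5%) and 24 of 247 in the higher group (9.72%, 6.33 to 14.1%), in 25 and 17 barcodes. In long reads the gene itself was at 167 CPM in the lower and 53.4 CPM in the higher group. Arid5a, an RNA-binding protein that stabilises inflammatory mRNAs, had a skipped exon of 121 bases in 80 of 212 UMIs in the lower (37.7%) and in 9 of 54 in the higher group (16.7%). The intervals of these differences were -33.3 to -18.9 points for Clk1 and -31.2 to -7.48 points for Arid5a.

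The other large falls named here, Pcnp aside, rested on fewer NMD UMIs. Gramd1a, a cholesterol transporter between membranes, went from 26 of 112 UMIs (23.2%) to 3 of 84 (3.57%). Thoc7, a subunit of the mRNA export complex THO, went from 15 of 94 (16.0%) to 2 of 441 (0.454%) on a retained-intron isoform. Snx17, a sorting nexin of endosomal recycling, went from 14 of 79 (17.7%) to 14 of 489 (2.86%), but its lower-group UMIs came from 3 barcodes. Pcnp, a nuclear protein with PEST sequences, went from 32.8 to 20.1% of 183 and 493 UMIs. Chpt1, which makes phosphatidylcholine, had 9 of 64 UMIs in 3 barcodes of the lower group and 0 of 95 in the higher, which allows a share of up to 3.16%. Rnf114, a ubiquitin ligase, went from 20.7 to 6.67%. Without the 1 barcode of each group with the most NMD UMIs of the gene, the differences of Rnf114 and Chpt1 were -7.83 and -6.78 points and no longer reached 10. Pcnp was at -6.59 points when the lower group ended at a smaller depth.

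Ramp2 had the largest rise of the 173 genes. The read-through isoform into Vps25 had 9 of 67 UMIs in the lower group (13.4%, exact 95% interval 6.33 to 23.97%) and 87 of 161 in the higher group (54.0%, 46.0 to 61.9%), in 4 and 34 barcodes. Ncaph2, a condensin II subunit for chromosome compaction, went from 5 of 52 (9.62%) to 153 of 370 (41.4%) on an isoform whose splice donor was shifted by 17 bases. Over all barcodes that donor was held by 480 UMIs in 2 counted isoforms, of which the NMD isoform had 214. Use of the donor itself was not compared between the groups. Mindy3, a deubiquitinase, went from 10.9 to 29.6% with a shift of 2 bases, which is within the merging distance. Eif4a2, an RNA helicase of translation initiation, went from 84 of 413 (20.3%) to 362 of 1006 (36.0%), and among reference-named isoforms alone the direction was reversed, at -6.92 points with an interval of -12.6 to 1.24.

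The remaining rises named by the same ranking were smaller or less certain. Tbce, a tubulin-folding cofactor, went from 4.62 to 16.7% of 130 and 210 UMIs, a difference of 12.1 points that was 8.76 without the deepest barcodes of the higher group. Ankrd1, a muscle ankyrin repeat protein that responds to stress, was at 31.0 and 42.0%, with an interval of -0.908 to 21.02 points and a difference of 2.94 points when cycling barcodes were allowed in the lower group. Mtf2, a Polycomb-associated protein, was at 22.7 and 33.1%, with an interval of -2.86 to 21.7 points. Of its 95 NMD UMIs over all barcodes, 87 were on an isoform with a shift of 4 bases, within the merging distance. The uncharacterised 4933434E20Rik had 0 of 71 UMIs in the lower group, which allows a share of up to 4.23%, and 24 of 244 in the higher. Its difference of 9.84 points was the largest just outside the limit of 10, and the smallest inside it was -10.1.

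**Figure D5:**
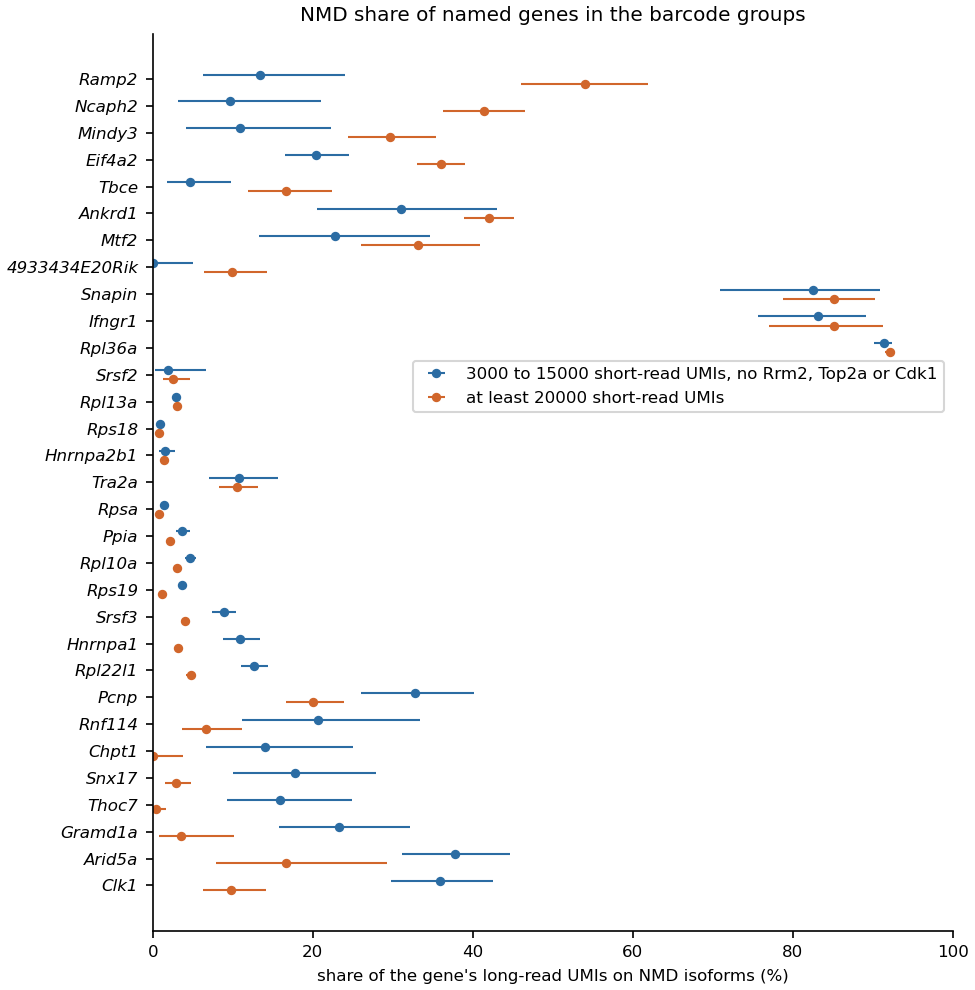
NMD share of the gene's long-read UMIs in the lower (blue) and higher (orange) barcode group for the named genes with at least 50 UMIs in each, with exact 95% intervals, ordered by the difference. The groups lie far apart for Clk1 and Ramp2 and near each other for Rpl36a, Ifngr1 and Snapin, all of which were over 80%.

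Of 10 splicing regulators outside the SR and hnRNP families, 8 had a lower and 2 a higher NMD share in the higher group, beside 97 lower and 73 higher of all 173 genes. Their intervals lay wholly on the lower side in 3 and on the higher side in 1, a share near that of all genes, 46 and 10 of 173. Their median difference was -3.41 points beside -0.174 over all genes. U2af1 was at 62 of 488 UMIs (12.7%) and 73 of 1381 (5.29%). Of the 4 SR genes Srsf3 was at 125 of 1413 (8.85%, exact 95% interval 7.42 to 10.4%) and 189 of 4701 (4.02%, 3.48 to 4.62%), in 39 and 53 barcodes. The NMD isoform was the only reference-named isoform counted for Srsf3, so among reference-named isoforms its share was the same in both groups. Tra2a was near equal at 10.8 and 10.6%, and Srsf2, at 2 of 106 and 10 of 392 UMIs, had too few to set apart.

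Among the hnRNPs Hnrnpa1, which regulates exon choice and mRNA export, was at 83 of 758 UMIs (10.9%, 8.82 to 13.4%) and 178 of 5652 (3.15%, 2.71 to 3.64%). Its NMD isoform keeps the ordinary stop codon, with the last exon-exon junction 90 bases after it. The gene as a whole was at 548 CPM of long-read UMIs in the lower and 1221 CPM in the higher group. Hnrnpa2b1 was at 1.52 and 1.43%. Neither Srsf3 nor Hnrnpa1 reached the limit of 10 points.

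Ribosomal protein genes named here had narrow intervals and mostly small differences, while the difference of Rpl22l1 was -7.83 points. Of 14 such genes compared, 10 were lower and 4 higher in the higher group, with a median difference of -0.114 points. Their intervals lay on the lower side in 8 and on the higher side in 0, beside 46 and 10 of all 173 genes. Rpl22l1, a paralog of Rpl22 that binds RNA, was at 12.6% (exact 95% interval 11.0 to 14.4%) and 4.77% (4.20 to 5.38%) of 1508 and 5224 UMIs. Rps19 was at 3.63 and 1.14%, Rpl10a at 4.68 and 3.08% and Rpsa at 1.35 and 0.792%. Rps18, at 0.844 and 0.797%, and Rpl13a, at 2.86 and 3.02%, had intervals that included 0. The Rps19 difference of -2.49 points was -1.74 without the 1 barcode of each group with the most NMD UMIs, since 73 of 290 in the lower group lay in 1 barcode.

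The remaining lists had few comparable genes. Of 3 proteasome genes 2 had intervals on the lower side, with Psmc5, an ATPase of the regulatory particle, at 10.4 and 2.48%. Of 2 core spliceosome genes Snrpa1, a U2 snRNP protein, was at 13.0 and 4.35%. Of 3 translation factor genes 1 interval lay on each side, the higher one being that of Eif4a2. The 5 respiratory chain and 2 mitochondrial ribosomal genes compared had intervals that included 0, as had Dnajc5, and none of the cell cycle genes reached 50 UMIs in each group. Ppia, which is on none of the lists, was at 3.67 and 2.16%.

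The genes of the NMD machinery were read from the short reads. Of 32, 27 had at least 50 UMIs over both groups. By 2-fold or more 7 were higher and 1 lower in the higher group, beside 32.5 and 14.2% of all 7059 genes so counted. Upf1, the central helicase of NMD, was at 11.7 CPM in the lower group (exact Poisson 95% interval 6.21 to 19.9) and 11.96 in the higher (9.15 to 15.4). Upf2 was at 30.5 and 20.0 CPM and Upf3b, which bridges to the exon junction complex, at 32.3 and 36.9 CPM. In the 90% aliquot without the barcodes that both aliquots share, Upf2 was near equal at 14.5 and 14.99 CPM and Upf3b was 2.04-fold higher, at 17.7 and 36.1 CPM. Smg1, the kinase that phosphorylates UPF1, was at 22.4 and 11.2 CPM, the single one to be lower by 2-fold. In the 90% aliquot Smg1 was at 28.7 and 20.3 CPM and did not reach 2-fold. Smg5 and Smg6, which bind phosphorylated UPF1, were at 8.97 and 17.6 CPM and at 17.9 and 12.2 CPM. In the 90% aliquot without the shared barcodes Smg5 was at 9.54 and 12.7 CPM. Smg6 was at 9.14 and 11.3 CPM there, the other direction.

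The higher genes were Dcp2, the decapping enzyme, at 7.18 and 19.4 CPM, the cap-binding Ncbp1 and Ncbp2, the Ruvbl1 and Ruvbl2 ATPases that support SMG1 assembly, the exon junction protein Magohb, at 18.8 and 62.0 CPM, and the helicase Dhx34. Dhx34 was at 1.79 CPM from 2 UMIs in the lower and at 18.2 CPM in the higher group. The median gene was higher by 0.36 on the log2 scale in the higher group. Relative to that median 5 NMD genes were 2-fold higher and 4 lower, beside 24.1 and 20.5% of all genes.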

How the data were processed

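Isoform counts were taken from the long-read table of the 10% aliquot and gene counts from the short-read tables of both aliquots. The authors deposited whole UMI counts per isoform, made with FLAMES from nanopore reads aligned with minimap2 (2.17 per the submitters' notes) to GRCm38.p6, and UMI counts per gene made with scPipe. FLAMES keeps isoforms supported by full-length reads, merges near-identical junctions and realigns the reads, so a shift of a few bases can be lost or assigned to either name. Gencode release 21 was used here for transcript types, exons, stop codons and sequences, while the authors' annotation was release 24. The authors' own isoform annotation gave the exons of isoforms without a reference name. No column belonged to another sample (0 unused).

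Each member was compared with the protein-coding transcripts of its gene by intron chain (tolerance 5 bases, window 30 bases). Counts were summed over barcodes. Shares carry exact Clopper-Pearson and differences Newcombe 95% intervals, and levels exact Poisson intervals. A gene was called at 10 points with at least 50 long-read UMIs in each group, a short-read gene at 2-fold with at least 50 UMIs. A count of 0 was read as at most 3. The procedure was tested on simulated data with independent UMIs, so that test does not show how the intervals behave with UMIs clustered in single barcodes. Named genes were the 10 members with most UMIs, the 10 highest shares, the 8 largest rises and falls and, in the SR, hnRNP, NMD factor and ribosomal lists, up to 8 genes with at least 20 NMD UMIs. U2af1, Psmc5, Snrpa1, Mrps34, Tardbp, Tra2b, Hnrnpll, Hnrnpr and Dnajc5 were named after their values were seen. The members, groups and lists were chosen with earlier results of these data known. Some genes are not reported here. No doublets were removed. Barcodes of the lower group had 2143 to 21143 and of the higher group 10162 to 162085 long-read UMIs. Intervals were computed with scipy 1.17.1.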

Additional observations from a re-analysis of the deposited data

Results flagged for a closer look

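A large NMD count lay in a barcode that no comparison used. Of the 1728 NMD UMIs of Rps19, 634 were in 1 barcode with 1467 short-read UMIs, which belonged to neither group. That barcode had 2537 long-read UMIs of Rps19 among 6409 in all and 8 short-read UMIs of the gene. Without it the Rps19 NMD share was 3.05% in place of 4.50%. The cause was not tested.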

How the results depend on the processing

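No paired analysis was possible because there was 1 capture and the barcode groups carry no replicate numbers. The NMD share of all long-read UMIs, 0.695%, was 1.597% of reference-named UMIs, 7.25% within the 313 genes, 0.704% with at least 15 UMIs per isoform, 0.687% in the deepest barcodes alone, 0.499% without members within 5 bases of a protein-coding transcript and 0.296% without ribosomal protein genes. In 4 other settings it stayed inside its interval. The group difference of -0.200 points was negative in these settings. It was -0.699 among reference-named isoforms, -0.0804 with the same gene weights in both groups, -0.0127 without ribosomal protein genes and -0.0534 with the last 2 together. In 7 settings, other depth limits included, it stayed inside its interval. The 19 of 173 genes past 10 points were 48 of 249 with a minimum of 20 UMIs and 7 of 112 with 100. Of the 173 they were 47 at 5 points, 4 at 20 points and 56 when the interval had to exclude 0. The share of all counted isoforms was not counted for the other UMI minimums and point limits, so these counts have no background. Of the named genes past 10 points Eif4a2 alone reversed, at -6.92 points among reference-named isoforms. Of those under 10 points, Exosc4, Hnrnpa2b1, Ifngr1, Snapin, Srsf2 and Tra2a, whose intervals include 0, changed sign in at least 1 setting. With reference-named isoforms alone 15 named genes, Ankrd1, Arid5a, Bak1, Mtf2, Ncaph2, Rnf114 and Srsf3 among them, had a difference of 0, because NMD isoforms were the only reference-named ones counted for each. The settings that left out ribosomal protein genes, members within 5 bases, single barcodes or shared barcodes, the interval limit and the scaling to the median gene were chosen after seeing the data.

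All 236 group barcodes also occur in the 90% table, so its NMD factor counts, 8 of 32 past 2-fold, are not independent. Without the 634 shared barcodes 9 of 32 passed, all higher. How many of all genes passed 2-fold was not counted in the 90% table, so these counts have no background. Long-read UMIs may not be independent molecules, and the intervals may then be too narrow. In 36 of 37 named genes with short-read counts, the barcode with the most NMD UMIs held more long-read than short-read UMIs of the gene. That barcode was picked by its long-read count, which favours such an excess, so this cannot settle the question. Genes under 50 UMIs in a group could not be compared at this depth.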

Other observations

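Barcodes under 1000 short-read UMIs, 1661 in number, held 1701003 long-read UMIs with an NMD share of 0.680% (exact 95% interval 0.668 to 0.693%), between those of the barcode groups. Rps19 had an NMD share of 6.91% there and Rps18 one of 3.35%, above both groups. Rpl36a was at 80.4%, below both groups. Clk1 was at 23.6% and Ramp2 at 37.5%, between their values in the lower and the higher group.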
